A study of Zea mays with 2 samples.

Results

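In the RNA-seq data of maize kernels, 1202 isolated nuclear loci were described. A locus here is a chromosome position for which the authors' files list an FPKM, the fragments per kilobase of exon relative to all mapped fragments of the library. The listed positions of both libraries on chromosomes 1 to 10 were pooled, giving 33949 positions, and the isolated loci are 3.54% of them. Each has 1 value per library where it is listed, a span from 1000 to under 20000 bp, and at least 100000 bp of sequence without any other listed position on each side. No FPKM value was used to choose them, although a position enters only if it is listed in at least 1 library.

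The maize genome is built largely of transposable elements, and its genes lie singly or in small islands between nests of retrotransposons. Gene density is high in the chromosome arms and low around the centromeres, where recombination is also rare. The repeats between the islands are mostly silenced by DNA methylation.

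The series compares kernels at 15 days after pollination (DAP) from wild type (WT) siblings and from a *ZmMADS47* knockdown, with 1 file of values for each. *ZmMADS47* encodes a MADS-box transcription factor, and the study asked what part it has in the expression of zein genes, whose products are the main storage proteins of the endosperm. By the methods, the knockdown transgene carries an inverted repeat of the *ZmMADS47* coding sequence under the promoter of an endosperm zein gene, the transgenic lines were made in HiII stock and backcrossed to W22, and the kernels came from selfed heterozygous plants of RNAi line 3, a single transformation event, and were sorted by PCR. The RNAi sample is a pool of kernels with the transgene and the WT sample a pool of their siblings without it, so both share the same segregating background, and segments linked to the transgene cannot be told apart from the knockdown. GEO's labels give kernel as the source and endosperm as the tissue, and the files carry no gene names against which the tissue could be checked. The series text speaks of triplicates, but 1 file per genotype was analysed here. How many sequenced samples stand behind each file is not known from the sources, and a file is called a library below, so the differences between genotypes have no replicate check and no P value was computed.

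The *ZmMADS47* locus, on chromosome 1 from 17965514 to 17987077 and not itself isolated, had 8.79 FPKM in WT and 4.01 in RNAi kernels. It was matched by position alone, to an interval of the same length that the paper gives for the gene. Its start and its end are each shifted by 819 bp from those of the interval. The WT file lists 34959 values that sum to 1241764 FPKM, and the RNAi file lists 34453 values that sum to 1102577. The files hold no read counts. The methods state only an approximate number of reads per sample, which was not used, so no counting error is given for a locus. All positions are on the AGPv2 build of the B73 genome named in the methods, with starts counted from 1. The files do not pair them with gene names, and exons, introns and strand were not analysed here. Fewer cells of a type in a pool and less RNA per cell cannot be told apart in these values.

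The isolated loci gathered in the middle of the chromosomes, away from the ends. When each chromosome was divided into 10 equal segments up to its last listed position, segments 3 to 7 held 72.8% of the isolated loci. They held 23.5% of the 11775 crowded loci, which have the same range of spans and 1 value per library but a listed neighbour within 5000 bp. Segment 5 alone held 205 isolated loci, and the last segment held 18. Among all loci of this span range, isolated loci made up 17.6% in segment 5 and 0.389% in the last.

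**Figure D1:**
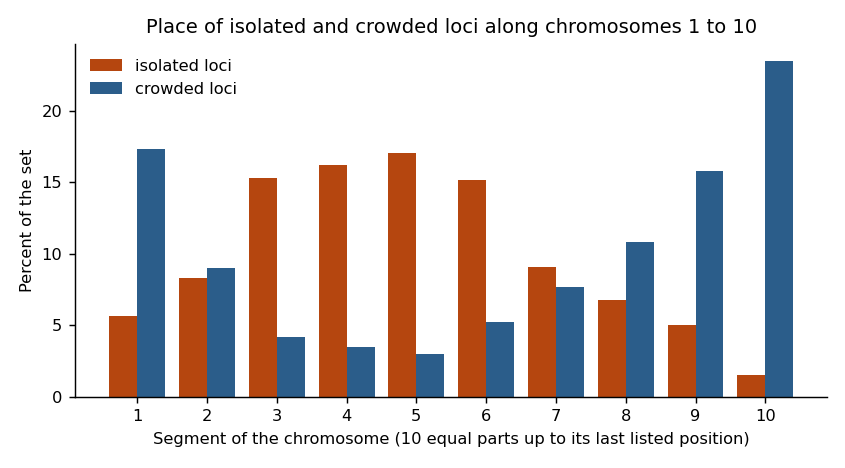
Percent of the isolated loci and percent of the crowded loci (vertical axis) in each of 10 equal segments of the chromosome, counted up to its last listed position and summed over chromosomes 1 to 10 (horizontal axis). The isolated loci peak at 17.1% in segment 5, where 2.97% of the crowded loci lie, and the crowded loci peak at 23.5% in segment 10.

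The low density around these loci extended beyond the distance used to choose them. Between 100000 and 1000000 bp from their edges, both sides together, the isolated loci had a median of 19 listed positions (quartiles 13 and 27), whereas the crowded loci had a median of 40 (quartiles 29 and 53). The smaller of the flanking gaps had a median of 135744 bp and reached 977264 bp. The larger had a median of 222256 bp and reached 2323770 bp. Both gaps are distances between listed positions, and genes with no uniquely mapped read in these kernels may lie within them.

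Of the 1202 isolated loci, 530 (44.1%) had another isolated locus as a listed neighbour, in 216 runs, and 672 stood alone. The rule itself favours such runs, because each listed neighbour of an isolated locus already has at least 100000 bp free on the facing side. No share for comparison was computed. Chromosome 4 held the most, 164, and chromosome 9 the fewest, 76. As a share of the loci of this span range they ranged from 3.71% on chromosome 1 to 6.40% on chromosome 4.

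The longest run held 9 isolated loci in succession on chromosome 7 between 63299993 and 66341068, and is described here because of its length. Its most abundant member, from 63919945 to 63924135, had 33.0 FPKM in WT and 30.6 in RNAi kernels. The next, from 64582959 to 64584699, had 14.9 and 18.6, and the first, from 63299993 to 63311712, had 6.20 and 6.94. These values were similar in both libraries. The largest gap between listed loci in the run, 1226701 bp, lies to the left of a locus from 65923260 to 65930292 with 1.26 in WT and 1.20 in RNAi kernels. By contrast, the locus from 63469369 to 63470445 had 5.80 in WT and 1.42 in RNAi kernels, giving a ratio of 0.245. The locus from 63745924 to 63747904 was listed in RNAi kernels alone at 1.11, and those from 64327564 to 64328790 and from 64695361 to 64696558 in WT kernels alone at 1.16 and 0.305. The last, from 66338850 to 66341068, had 0.474 and 0.208. High, low and single-library loci thus stood side by side in 1 run.

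The isolated loci had lower FPKM values than the crowded loci in both libraries. In WT kernels the median FPKM over listed loci was 3.32 for isolated loci (quartiles 0.569 and 10.3) and 4.34 for crowded loci (quartiles 0.962 and 12.5). In RNAi kernels it was 3.62 (quartiles 0.640 and 11.0) and 4.50 (quartiles 1.02 and 13.3). The isolated median was thus 0.766 of the crowded median in the WT library and 0.804 of it in the RNAi library. The 11714 loci of the same span range that were neither isolated nor crowded had lower medians still, 3.17 in WT and 3.38 in RNAi kernels. A lower level than that of the crowded loci was therefore not particular to the isolated loci. These medians are over all segments, and the isolated and crowded loci lie in different ones. Within segments 3 to 7 the WT medians were 3.12 and 3.45, a ratio of 0.905, and within the outer segments 1, 2, 9 and 10 they were 4.04 and 4.62, a ratio of 0.876. In RNAi kernels the corresponding ratios were 0.841 and 0.971. In segment 8, with 81 isolated loci, the ratio was 0.860 in WT and 1.19 in RNAi kernels. The quartile ranges overlapped widely, and the median was lower for isolated loci on 9 of the 10 chromosomes in each library. The exception was chromosome 10, with a WT median of 4.96 for isolated loci and 3.90 for crowded loci. Loci are not replicates of a condition, so this and the following comparisons between isolated and crowded loci are descriptions of these libraries and carry no test.

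The difference was seen in each span class under 10000 bp and was small in the longest. At spans under 2000 bp the WT median was 1.01 for 317 isolated loci and 1.50 for 3032 crowded loci, and from 2000 to under 5000 bp it was 3.10 and 4.51. From 5000 to under 10000 bp it was 6.57 and 7.76. At 10000 bp or more it was 8.09 for 116 isolated loci and 8.31 for 652 crowded loci. The RNAi library showed the same order, with 1.17 and 1.59 in the shortest class, but in the longest class the isolated median of 8.99 was slightly above the crowded median of 8.87. The isolated loci were not shorter as a set, with a median span of 3473 bp against 3231 bp.

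**Figure D2:**
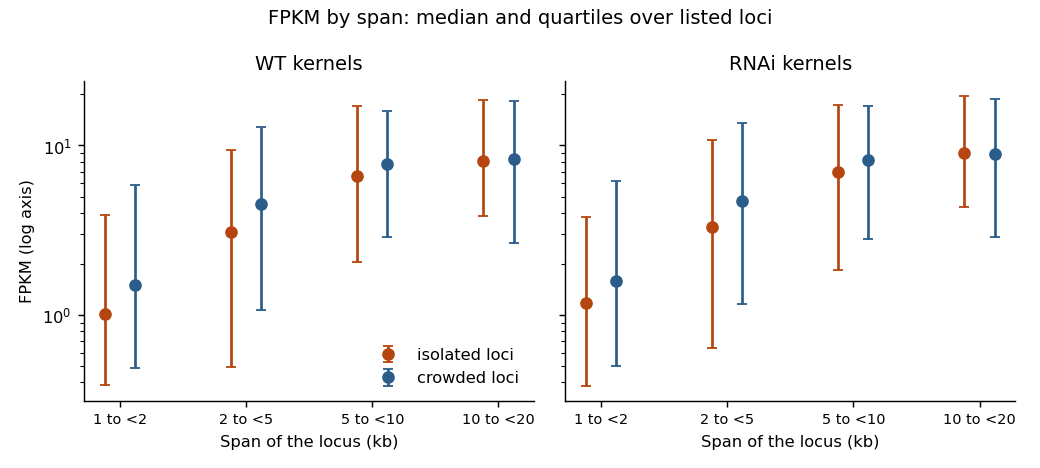
Median FPKM (points, log axis) with quartiles (bars) over listed isolated and crowded loci in 4 classes of span, for WT kernels and RNAi kernels. Isolated medians are below the crowded ones in the classes under 10000 bp, and in the longest class they are 8.09 and 8.31 in WT kernels.

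Some isolated loci had high values. In each library 19 isolated loci (1.58%) were at 100 FPKM or more, a share close to that of the crowded loci, which was 1.42% in the WT and 1.61% in the RNAi library. At 10 FPKM or more the isolated share was 23.9% in WT kernels and the crowded share 28.9%. The isolated loci together held 1.30% of the summed FPKM of the WT library and 1.49% of that of the RNAi library. In the WT library, 42.7% of their sum came from the 19 loci with a mean of at least 100.

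The most abundant isolated locus lies on chromosome 4 from 30060008 to 30061466, with 2346 FPKM in WT and 1927 in RNAi kernels, a ratio of 0.821. It was the only isolated locus above 1000 FPKM. The next, on chromosome 5 from 68020016 to 68022909, had 543 in WT and 649 in RNAi kernels, a ratio of 1.20. On chromosome 8 from 7299739 to 7301739 the values were 467 and 557, a ratio of 1.19. The ratios of these 3 lay between the limits of 0.71 and 1.4 that the study used for its fold changes. A second locus on chromosome 5, from 112928080 to 112930204, had 320 and 481, a ratio of 1.50. It closes a run of 6 isolated loci that begins at 111997539. The fifth, on chromosome 1 from 125073872 to 125080812, had 354 and 392, a ratio of 1.11. Of the 19 loci with a mean of at least 100 FPKM, 16 had a ratio over 1, and 16 (not all the same loci) lay between those limits. Crowded loci were also mostly between them. Among those at 50 FPKM or more in one or both libraries, 496 of 543 compared were between, and the median ratio was 1.05.

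The 5 most isolated loci had values from 0.133 to 5.18 FPKM where listed. The locus with the widest smaller gap, on chromosome 1 from 134177666 to 134179286, stands 977264 bp from its left and 2323770 bp from its right neighbour and had 0.133 FPKM in WT and 0.344 in RNAi kernels. On chromosome 6 a locus from 12902424 to 12905336 was listed in WT kernels alone, at 0.317, and another from 15370883 to 15374841 had 1.82 in WT and 1.89 in RNAi kernels. A locus on chromosome 5 from 103995250 to 103998930 was listed in RNAi kernels alone, at 1.66. The fifth, on chromosome 10 from 45471777 to 45475792, had 5.18 in WT and 0.938 in RNAi kernels, a ratio of 0.181. Its WT value is above the WT median of all isolated loci, 3.32. None of these 5 reached 10 FPKM, a level that 23.9% of all isolated loci reached in WT kernels. Over all isolated loci the WT median decreased with distance, from 3.71 where the smaller gap was under 150000 bp to 3.17, 2.46 and 1.53 in the classes from 150000, from 200000 and from 300000 bp. The RNAi medians were 4.50, 2.86, 2.34 and 1.33.

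Loci on both sides of the limits of the rule are given as a description. The isolated loci nearest the limit lie on chromosome 10 from 98997627 to 99001240 (4.86 FPKM in WT and 5.24 in RNAi kernels), chromosome 2 from 218217623 to 218223528 (1.85 and 2.23) and chromosome 7 from 24839145 to 24840336 (15.6 and 11.2). Just outside it, at gaps of 99979, 99958 and 99900 bp, were loci on chromosome 9 from 9497367 to 9507537 (1.39 and 1.65), chromosome 1 from 40912998 to 40914398 (0.245 and 0.459) and chromosome 6 from 82963690 to 82967765 (18.2 and 18.6). At the lower limit of span, the shortest member, of 1004 bp, had 0.482 in WT and 0.658 in RNAi kernels, and the longest locus left out, of 997 bp, was listed in WT kernels alone at 0.516. At the upper limit, the longest member, of 19951 bp, had 3.85 and 4.98, and the shortest locus left out, of 20093 bp, had 9.64 and 9.92. Of 1621 positions with 100000 bp free on each side, 197 were too short, 73 too long, and 149 of the right span had several values.

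Of the isolated loci 999 (83.1%) were listed in both libraries, 121 in WT kernels alone and 82 in RNAi kernels alone. Among all positions on chromosomes 1 to 10 the share listed in both was 83.8%, and among all loci of the same span range with 1 value it was 86.1%. The crowded loci had a share of 88.0%, so the isolated loci were 4.91 percentage points lower. On chromosome 10 alone was the isolated share above the crowded one, at 90.4% against 86.9%. The lowest isolated share, 74.7%, was on chromosome 2, where 19 loci were listed in each library alone.

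Most of the difference in listing went with the level of FPKM. Within bands of the higher of the 2 FPKM values, the isolated and crowded shares were 43.1% and 44.4% under 0.5, 78.3% and 79.6% from 0.5 to 1, 88.1% and 93.1% from 1 to 2, and 96.9% and 98.3% from 2 to 5. From 5 FPKM upwards every one of the 507 isolated loci was listed in both libraries. When the crowded loci were weighted to the FPKM bands of the isolated loci, their share became 84.2%, which is 1.10 percentage points above the isolated share. Weighting by span alone gave 88.1%.

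The single-library loci had low values. Those listed in RNAi kernels alone had a median of 0.321 FPKM, and 71 of the 82 were under 1. Those listed in WT kernels alone had a median of 0.312, and 112 of the 121 were under 1. The highest were, in RNAi kernels alone, a locus on chromosome 3 from 189058740 to 189061807 at 3.38, one on chromosome 6 from 37567041 to 37568262 at 2.51 and the chromosome 5 locus already named at 1.66. In WT kernels alone they lay on chromosome 5 from 112297124 to 112300738 at 2.82, chromosome 2 from 88092660 to 88093930 at 2.61 and chromosome 7 from 47723245 to 47725613 at 2.08. No isolated locus was therefore strongly expressed in one library and unlisted in the other. Among the crowded loci one such value reached 433 FPKM, in the RNAi library.

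For the comparison of genotypes, the 775 isolated loci listed in both libraries with at least 1 FPKM in one or both were used, and the 427 others have no ratio here. Of the 775, 97 (12.5%) had an RNAi over WT ratio above 1.4, 111 (14.3%) had a ratio below 0.71 and 567 lay between these limits of the study, applied without its P value. The background for loci of the same span range was 15.3% above and 11.8% below, and over all compared loci of any span it was 17.0% above and 13.6% below. The crowded loci, with 8617 compared, had 14.6% above and 10.8% below. More isolated loci were thus lower than higher in RNAi kernels, whereas the crowded and background loci had more that were higher. The share below 0.71 was 3.52 percentage points above that of the crowded loci and 2.52 points above the background of its span range, and close to that of loci of any span.

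**Figure D3:**
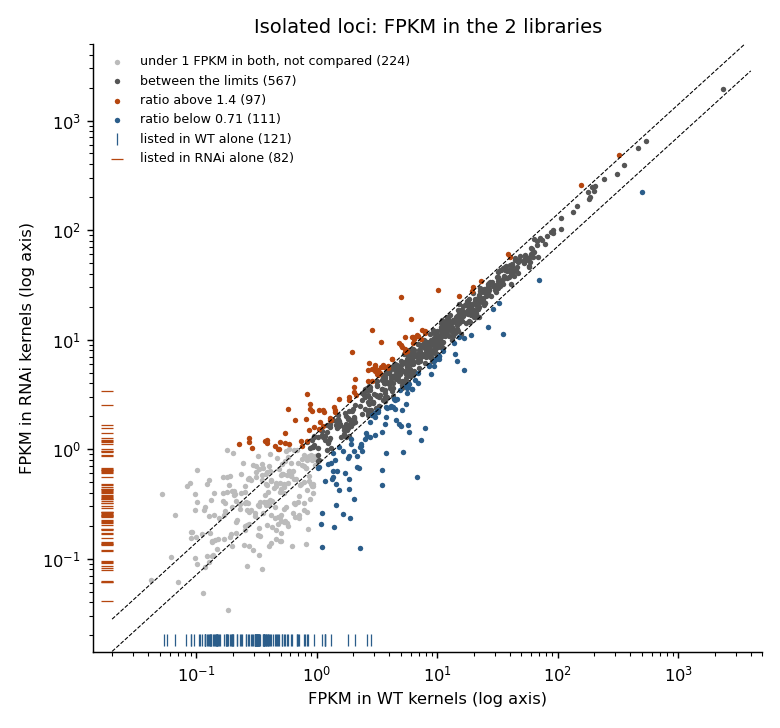
FPKM of the isolated loci in WT kernels (horizontal log axis) and RNAi kernels (vertical log axis), with dashed lines at ratios of 1.4 and 0.71 and ticks along the axes for loci listed in 1 library. The 97 loci above and 111 below the limits lie mostly under 10 FPKM, and the single-library loci reach no higher than 3.38 FPKM.

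The median ratio was 1.04 for isolated loci (quartiles 0.857 and 1.22) and 1.06 for crowded loci (quartiles 0.889 and 1.24), and after scaling by the median ratio, taken over loci at 10 FPKM or more in each library, the isolated median was 0.987. Of the isolated loci past a limit, 46.6% were higher, against 57.5% of the crowded loci. This split depends on the scaling of the libraries. After scaling to the same total, which adds 0.17 to every log2 ratio, 69.4% of the isolated loci past a limit were higher, and after scaling by the median ratio 40.3% were. Under each of these scalings the isolated share below 0.71 stayed above the crowded one, with 9.94% against 7.64% for the same total and 15.9% against 12.8% for the median ratio.

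The loci past the limits were spread over all 10 chromosomes and had low levels. Their median mean FPKM was 2.73 for those below 0.71 and 3.99 for those above 1.4, and it was 9.11 for those between. In the middle segments 3 to 7 lay 77.5% of the loci below and 74.2% of the loci above, and 70.0% of the loci between. Within segments 3 to 7, 15.5% of the isolated loci were below 0.71 against 9.90% of the crowded loci, whereas in the outer segments 1, 2, 9 and 10 the isolated share was slightly under the crowded one, at 10.6% against 11.0%. In segment 8 the shares were 13.6% and 11.3%. The share below 0.71 was above that of the crowded loci on 7 of the 10 chromosomes. It was highest on chromosome 5, where 19 of 88 isolated loci were below (21.6%) against 9.17% of the crowded loci. It was lowest on chromosome 8, where 4 of 59 were below (6.78%) against 9.57%. Without chromosome 5 the isolated share was 13.4% and the crowded share 11.1%.

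The band from 2 to 5 FPKM held the widest gap between isolated and crowded loci. There 40 of 157 isolated loci (25.5%) were below 0.71 and 23 (14.6%) above 1.4, against 16.6% and 23.1% of the crowded loci. From 5 to 10 FPKM 12.8% were below, against 8.60%, and from 10 to 20 FPKM 7.86%, against 4.54%. From 20 to 50 FPKM the shares were nearly alike, with 3.45% and 3.22%, and at 50 or more the order turned, with 2 of 55 isolated loci (3.64%) against 5.16%. From 1 to 2 FPKM they were 26.1% and 25.9%. In both sets the share past either limit fell steeply with FPKM up to 50. With the crowded loci weighted to the FPKM and span bands of the isolated loci, their shares were 10.7% below and 14.5% above, against 14.3% and 12.5% of the isolated loci.

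**Figure D4:**
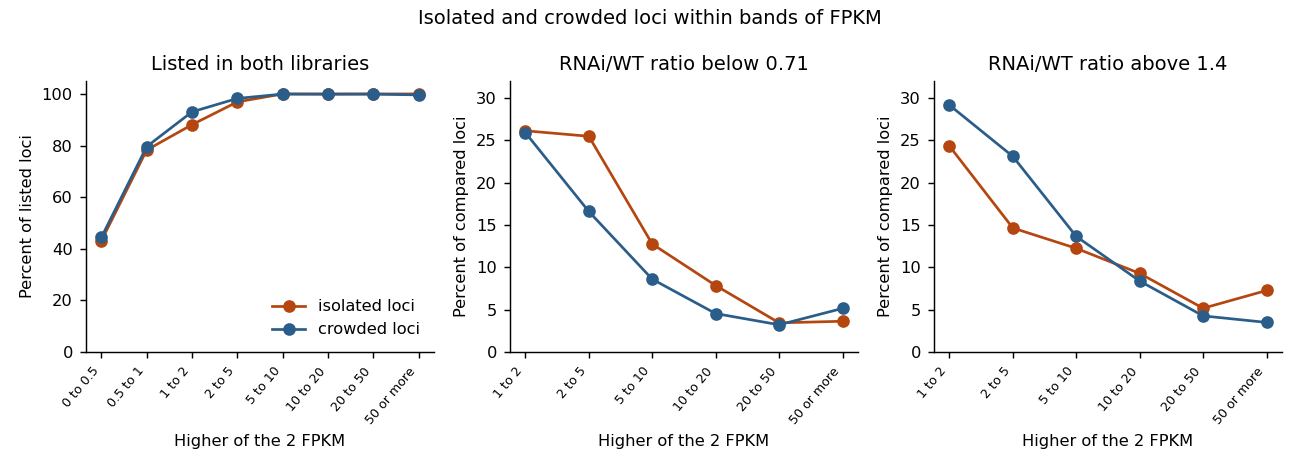
Percent of isolated and crowded loci listed in both libraries (left), below a RNAi over WT ratio of 0.71 (middle) and above 1.4 (right), by band of the higher of the 2 FPKM values. The listing curves lie close together except from 1 to 2 FPKM, with 88.1% for isolated and 93.1% for crowded loci. The isolated share below 0.71 is 25.5% from 2 to 5 FPKM where the crowded share is 16.6%.

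Short and very remote loci had the most low ratios. Of 149 compared isolated loci under 2000 bp, 42 (28.2%) were below 0.71 and 30 (20.1%) above 1.4, and the crowded loci of that span had 21.3% and 22.7%. At 10000 bp or more 5 of 98 isolated loci were below and 6 above. By distance, 66 of 503 loci with a smaller gap under 150000 bp were below 0.71 and 66 above 1.4, at 13.1% each. With a gap from 200000 to under 300000 bp 17 of 80 (21.3%) were below and 5 (6.25%) above, and from 300000 bp on 9 of 35 (25.7%) were below and 4 (11.4%) above. Their levels were also lower, as given above, and the part of the level in these shares was not tested. Without the loci at 200000 bp or more, 85 of 660 (12.9%) were below and 88 (13.3%) above, so the excess of low over high ratios in the whole set is not seen without them.

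**Figure D5:**
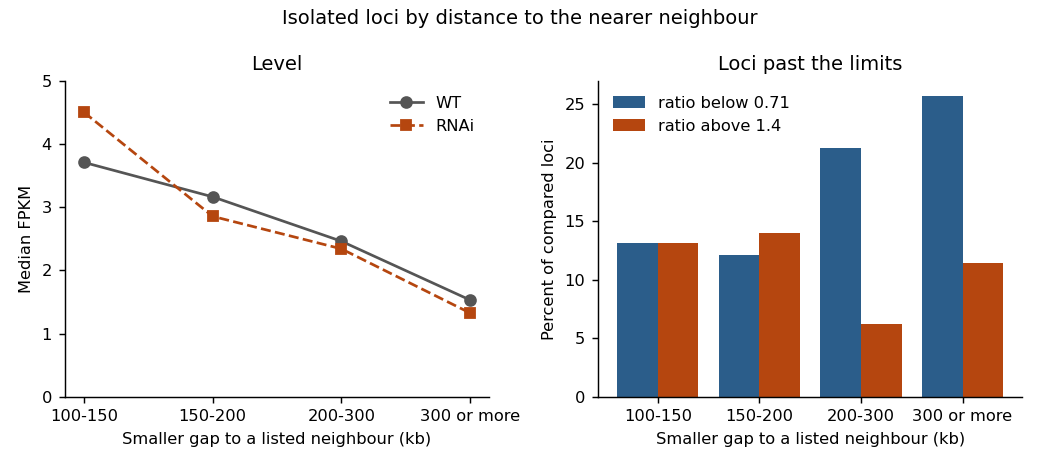
Isolated loci grouped by the smaller gap to a listed neighbour, in kb (horizontal axes). The left panel gives the median FPKM in each library, which in WT kernels decreases from 3.71 to 1.53. The right panel gives the percent of compared loci below 0.71 and above 1.4. From the nearest to the farthest class, 13.1%, 12.1%, 21.3% and 25.7% of 503, 157, 80 and 35 loci were below.

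Of the 463 compared isolated loci with a mean of at least 5 FPKM, 33 (7.13%) were above 1.4 and 26 (5.62%) below 0.71. In each direction 5 were past a fold of 2, a share that was not computed for other loci at this minimum. At the same minimum the crowded loci had 7.5% above and 4.67% below, all loci of this span range 7.8% and 4.9%, and loci of any span with equally many values in WT and RNAi kernels 10.1% and 7.1%. The shares of the isolated loci were near those of the loci of like span. The lowest ratio among the 463 was on chromosome 10 from 97998393 to 97999690, with 16.7 FPKM in WT and 5.26 in RNAi kernels, a ratio of 0.315. A locus on chromosome 7 from 23402189 to 23403197 had 35.1 and 11.4, a ratio of 0.323. On chromosome 5 a locus from 136445637 to 136446669 had 14.6 and 6.35, a ratio of 0.435. All 3 span under 2000 bp.

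Among the isolated loci with a mean of at least 100 FPKM, the only locus below 0.71 was on chromosome 8 from 132717642 to 132719231. It had 502 FPKM in WT and 223 in RNAi kernels, with a ratio of 0.444. On the log2 scale this is -1.17, similar to that of the *ZmMADS47* locus at -1.13. Its neighbours lie 181597 bp to the left and 156331 bp to the right. A locus on chromosome 5 from 127602043 to 127605592 had 26.2 and 12.9, a ratio of 0.492.

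Among the 463 loci the highest ratio was on chromosome 9 from 61154266 to 61158067, with 4.98 FPKM in WT and 24.3 in RNAi kernels, a ratio of 4.88. On chromosome 3 a locus from 36592591 to 36593813 had 2.87 and 12.3, a ratio of 4.27, and another from 67560208 to 67569365 had 3.42 and 9.41, a ratio of 2.75. On chromosome 1 a locus from 91875822 to 91877199 had 10.2 and 28.3, a ratio of 2.77. The fifth, on chromosome 2 from 105890754 to 105893159, had 6.06 and 15.3, a ratio of 2.52. None of these 5 reached 30 FPKM in either library. At a mean of at least 100 FPKM the locus furthest above the limit was on chromosome 9 from 73351550 to 73358330. It was chosen after its values were seen and had 157 and 260, a ratio of 1.66.

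Neighbouring isolated loci were past the same limit in some pairs and past opposite limits in others. Of 135 adjacent pairs in which both members were compared, 67 had both between the limits and 52 had 1 past a limit. In 4 pairs both were below 0.71, in 5 both were above 1.4, and in 7 the members were past opposite limits. Among all 775 compared isolated loci 14.3% were below and 12.5% above. Pairs of other loci were not counted, so these few pairs have no background and cannot decide whether neighbours share a direction. An example, chosen after its values were seen, is a pair on chromosome 1 separated by 117868 bp. The left locus, from 94367001 to 94369039, had 16.6 FPKM in WT and 10.3 in RNAi kernels, giving a ratio of 0.620. The right locus, from 94486908 to 94489534, had 5.01 and 8.84, a ratio of 1.76.

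The nearest listed neighbour was also examined, whether isolated or not. Of the 111 isolated loci below 0.71, 76 had a nearest neighbour that could be compared, and 12 of these neighbours (15.8%) were also below. The same share, 15.8%, was found for the neighbours of the isolated loci between the limits. Of the isolated loci above 1.4, 58 had such a neighbour, and 14 of these (24.1%) were also above, against 13.6% for the loci between. The isolated loci below 0.71 also had 14 of 76 such neighbours (18.4%) above 1.4, more than they had below. Loci that are each other's nearest neighbour are counted from both sides. The crowded loci above 1.4 had 17.8% of their nearest neighbours above, against 16.3% for crowded loci between the limits.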

How the data were processed

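Total RNA of 15 DAP kernels was sequenced by the authors, and 1 file per genotype was analysed and treated as 1 library. By the methods, reads were aligned to AGPv2 with TopHat and unique reads were normalized with Cufflinks, and Bowtie 0.12.2 is named in the submitters' processing notes. The deposited FPKM values are above 0 in both files, each with a chromosome position and no gene name. Rows that share a position were added up, and gaps were measured between the edges of positions pooled over both files. Starts were taken as counted from 0 in the files and are given counted from 1, because the *ZmMADS47* locus then has the length of the interval in the paper; this was checked at that locus alone. Loci at a chromosome end, with no neighbour on one side, were not counted as isolated. Ratios are plain RNAi over WT ratios of loci with 1 value in each library and at least 1 FPKM in one or both. Read counts were not used, since none are in the files, and no test was made with 1 file per genotype.

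The members and comparisons were chosen with earlier results of these data known. Single loci were named by fixed rules: the 5 highest means, the 5 largest and 5 smallest ratios at a mean of at least 5 FPKM, the 3 highest in each library alone, and the 5 widest smaller gaps. The assembly of the gene table at hand differs from AGPv2, so its coordinates were not used. Alternatives covered the distances, the span range, the minimum, the pseudocount, the scaling and the fold limit. The class and count steps were tested on simulated positions. The scripts ran under Python 3.11.15 with numpy 2.4.6, pandas 2.3.3, matplotlib 3.10.9 and scipy 1.17.1.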

Additional observations from a re-analysis of the deposited data

How the results depend on the processing

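At 50000 bp 3710 loci were isolated. Of 2502 compared, 376 (15.0%) were above 1.4 and 316 (12.6%) below 0.71, against 14.6% and 10.8% of the crowded loci. At 200000 bp there were 198, with a median ratio of 1.01 and a WT median 0.424 of the crowded one. Their share listed in both differed from the crowded share by -7.72 points. Of 115 compared, 9 (7.83%) were above and 26 (22.6%) below, against the same crowded shares as at 50000 bp. With spans of 2000 to under 10000 bp there were 769. Of 528 compared, 61 (11.6%) were above and 64 (12.1%) below, against 12.8% and 8.36% of the crowded loci. The difference in listing was -1.06 points at a minimum of 1 FPKM and -1.10 with crowded loci weighted by FPKM. With no minimum FPKM 170 of 999 loci (17.0%) were above and 172 (17.2%) below, against 17.3% and 13.8% of the crowded loci. With a minimum of 5, of 507 loci 47 (9.27%) were above and 42 (8.28%) below, against 8.63% and 5.61%. With a fold limit of 2, of 775 loci 30 (3.87%) were above and 53 (6.84%) below, against 4.79% and 4.06%. At 1 FPKM in both libraries 73 of 699 (10.4%) were below, against 7.80% of the crowded loci. Scaling to the same total gave 175 of 775 (22.6%) above, against 24.4% of the crowded loci, and a median ratio of 1.17. Scaling by the median ratio gave a median of 0.987, since these scalings divide or multiply every ratio. The cause of the other changes was not tested. Over all segments together, the share below 0.71 was above the crowded share in all 14 settings run, including without chromosome 5 and without gaps of 200000 bp or more, both chosen after seeing the data. In the outer segments 1, 2, 9 and 10 alone it was not (10.6% against 11.0%). The share above 1.4 was under the crowded share in 12 settings, and not with a minimum of 5 FPKM (9.27% against 8.63%) or at 50000 bp (15.0% against 14.6%). All these settings, the main one among them, reuse the same 2 libraries, so their agreement is no independent check. No paired analysis was possible because there is only 1 file for a genotype.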
